A study of Mus musculus with 12 samples.

Results

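Star, Cyp11a1, Fdx1 and Fdxr are the 4 genes that bring cholesterol to the inner mitochondrial membrane and turn it into pregnenolone. They were taken by name from the array annotation, where 8 of 41174 probes carry their names, and are 4 of the 15830 genes tested. RNA came from Leydig cells cut by laser capture from frozen testis sections of male C57BL/6J mice, 21 weeks old. DEHP mice had received di-(2-ethylhexyl) phthalate, a plasticiser, dissolved in corn oil, at a daily gavage dose of 200 mg per kg over 21 days, and vehicle mice had received only the oil. The arrays held 2 DEHP mice, numbered 1 and 4, and 3 vehicle mice, numbered 1, 2 and 4. Each mouse gave 1 capture, whose RNA was amplified in 2 rounds before labelling, so a mouse value also carries the error of that capture and amplification. Every DEHP mouse was hybridised against every vehicle mouse in both dye orientations on two-colour Agilent arrays, which gave 12 arrays but 5 animals.

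Leydig cells, between the tubules of the testis, make testosterone from cholesterol. Star promotes the delivery of cholesterol to the inner mitochondrial membrane, a step that limits the rate of steroid production and that luteinizing hormone controls. In the matrix, the P450 enzyme Cyp11a1 then cuts the side chain of cholesterol, with electrons that Fdxr takes from NADPH and that the iron-sulfur protein Fdx1 carries to the enzyme.

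The probes matter to what follows, since agreement between probes of a gene bears on the gene and not on a single spot. Positions are those of the array files on mouse assembly mm7. Star had 2 probes, at chr8:24570752-24570811 and chr8:24571477-24571536 on the plus strand. Fdxr had 1, at chr11:115377298-115377357 on the minus strand. Cyp11a1 had 2 on the minus strand, placed on a part of chromosome 9 whose order was not settled in that assembly, at chr9_random:3880883-3880942 and chr9_random:3881114-3881173. Their sequences, shown because they read separate stretches of the Cyp11a1 message, do not overlap and lie 171 bases apart on that assembly.

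A_51_P309733: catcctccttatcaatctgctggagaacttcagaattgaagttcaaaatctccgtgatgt
A_51_P309727: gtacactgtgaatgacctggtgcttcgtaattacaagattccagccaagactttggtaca

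Fdx1 had 3 probes on the minus strand of chromosome 9. A pair of them, at chr9:51926999-51927058 and chr9:51926979-51927038, overlap by 40 of their 60 bases, in capitals here, so they are not independent readings of the gene.

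A_52_P582105: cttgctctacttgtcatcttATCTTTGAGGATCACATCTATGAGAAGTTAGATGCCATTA
A_51_P291135: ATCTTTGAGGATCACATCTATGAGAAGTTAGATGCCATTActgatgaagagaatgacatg

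The remaining Fdx1 probe, A_51_P291129 at chr9:51921779-51921838, shares no such stretch with them. All 8 probes passed the filter on dim spots. They were well above background in 12 of 12 channels of each group, and no spot of theirs was saturated or marked as an outlier. Their mean log2 intensities ran between 8.89 and 14.69, and intensities of different probes cannot be set against each other.

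The first comparison asked whether the genes differed between DEHP and vehicle mice. They did not separate the groups. Values are log2 levels in a mouse, set against the average of all 5 mice and read from the probe of highest intensity for each gene. Star was at 0.81 and -0.72 in DEHP mice 1 and 4, against -0.95, 0.57 and 0.29 in vehicle mice 1, 2 and 4. The highest level was thus in a DEHP mouse and the lowest in a vehicle mouse, with the other DEHP mouse close to the lowest. The groups averaged 0.05 ± 1.09 in DEHP mice (SD, n = 2) and -0.03 ± 0.81 in vehicle mice (SD, n = 3), a log2 difference of 0.08 (SE 0.63, 95% interval -1.48 to 1.63, limma adjusted p = 1.00). On the linear scale that interval runs from 0.358-fold to 3.10-fold.

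Cyp11a1, the enzyme that cleaves the side chain, was at 0.68 and -1.14 in DEHP mice 1 and 4, against -0.42, 0.37 and 0.50 in vehicle mice 1, 2 and 4. Here the DEHP mice held both extremes, and all vehicle mice lay between them. The means were -0.23 ± 1.29 in DEHP mice (n = 2) and 0.15 ± 0.50 in vehicle mice (n = 3), a log2 difference of -0.38 (SE 0.59, 95% interval -1.84 to 1.08, limma adjusted p = 1.00). The interval runs from 0.280-fold to 2.11-fold.

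Fdx1, the electron carrier, was at 0.74 and -0.87 in DEHP mice, against -0.96, 0.34 and 0.75 in vehicle mice. Vehicle mice held both extremes in this gene, each with a DEHP mouse close by. The means were -0.07 ± 1.14 in DEHP mice (n = 2) and 0.04 ± 0.89 in vehicle mice (n = 3), a log2 difference of -0.11 (SE 0.67, 95% interval -1.78 to 1.56, limma adjusted p = 1.00). Fdxr, the reductase, was at 0.77 and -0.78 in DEHP mice, against -1.10, 0.69 and 0.41 in vehicle mice. As in Star, the top level was in DEHP mouse 1 and the bottom level in vehicle mouse 1. The means were -0.01 ± 1.10 in DEHP mice (n = 2) and 0.00 ± 0.96 in vehicle mice (n = 3), a log2 difference of -0.01 (SE 0.69, 95% interval -1.72 to 1.70, limma adjusted p = 1.00).

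**Figure D1:**
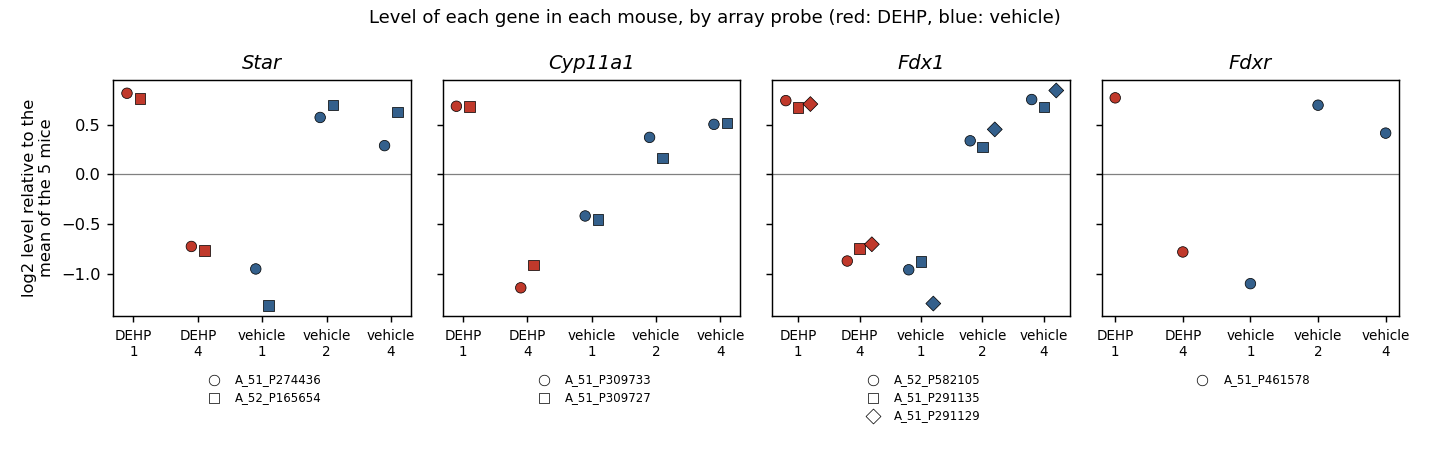
Log2 level of each gene by mouse (vertical axis, 0 is the mean over all 5 mice), with DEHP mice in red and vehicle mice in blue; each symbol is 1 array probe of the gene. In every panel DEHP mouse 4 and vehicle mouse 1 lie below 0 and the other 3 mice above it.

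None of the 4 genes passed an adjusted p of 0.05, as was true of all genes (0% of 15830 called, with 136 at an unadjusted p under 0.05). The groups of mice overlapped in all 4, where 9.17% of all genes had groups that did not overlap. Two-sided exact permutation tests over the 5 mice gave p from 0.7 to 1, where the smallest p that 2 against 3 mice can give is 0.1. The median difference of all genes was -0.01. With 5 mice and this spread, the intervals above hold wide differences in either direction, so these values do not show that the genes stayed the same. The intervals are not adjusted for the number of genes and give no limit of detection.

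The other probes of each gene gave the same order of high and low mice, within the gaps below. The second Star probe, A_52_P165654, was at 0.76 and -0.77 in DEHP mice, against -1.32, 0.70 and 0.63 in vehicle mice, and differed by -0.00 (SE 0.76). The second Cyp11a1 probe, A_51_P309727, was at 0.68 and -0.91 in DEHP mice, against -0.45, 0.17 and 0.52 in vehicle mice, and differed by -0.19 (SE 0.53). The separate Fdx1 probe, A_51_P291129, was at 0.71 and -0.70 in DEHP mice, against -1.30, 0.45 and 0.84 in vehicle mice, and differed by 0.00 (SE 0.75). In all of them DEHP mouse 4 and vehicle mouse 1 were the low mice. The overlapping Fdx1 probe, A_51_P291135, differed by -0.06 (SE 0.61) between the groups. Across the 5 mice, the root mean square difference between probes of the same gene was 0.08 for the overlapping Fdx1 pair, 0.18 and 0.22 for the other Fdx1 pairs, 0.14 for Cyp11a1 and 0.23 for Star.

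The second question was how the mice differed within their group, which the repeated arrays answer for these extracts. DEHP mouse 4 was lower than DEHP mouse 1 in all 4 genes. For Cyp11a1 the log2 difference was -1.82 (SE 0.07), or 3.54-fold lower in DEHP mouse 4, with a limma adjusted p of 6.65e-10 on the 12 arrays. Fdx1 followed at -1.61 (SE 0.07), Fdxr at -1.55 (SE 0.05) and Star at -1.54 (SE 0.07). The other 4 probes gave -1.41 to -1.59. These tests compare 2 captured extracts, not conditions, and 41.1% of all genes were called lower in DEHP mouse 4. Among the 15830 genes ordered from the most lowered in that mouse, Cyp11a1 stood at 149, Fdx1 at 265, Fdxr at 316 and Star at 327.

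The size of this difference depended on the normalization. With each array centred on its median in place of loess, which removes dye bias that varies with intensity, it was -0.87 for Star, -1.23 for Cyp11a1, -0.48 for Fdx1 and -0.91 for Fdxr. In that setting the median of all genes moved to 0.30, against -0.05 with loess. All 4 genes still lay below that median and were called. In the other 8 alternatives the differences stayed between -1.36 and -1.91. Both ends came from the authors' value table, where other probes stood for Fdx1 and Cyp11a1. The filter and dye-term alternatives left the estimates as they were and changed only their errors.

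Vehicle mouse 1 was lower than the mean of vehicle mice 2 and 4 in all 4 genes. Fdxr differed most, by -1.65 on the log2 scale (SE 0.06), or 3.14-fold lower in vehicle mouse 1, with a limma adjusted p of 5.98e-10 on the 12 arrays. Fdx1 differed by -1.50 (SE 0.07) and Star by -1.38 (SE 0.07). Cyp11a1 had the smallest difference of the 4, at -0.86 (SE 0.07), and its second probe gave -0.79. The second Star probe and the separate Fdx1 probe gave more than the probes that stand for these genes, -1.98 and -1.95. Of all genes, 38.2% were called lower in vehicle mouse 1 and 28.5% in both this comparison and the one of the DEHP mice, a group that held all 4 genes here. In the order of all genes, Fdxr stood at 127, Fdx1 at 223, Star at 355 and Cyp11a1 at 1387.

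**Figure D2:**
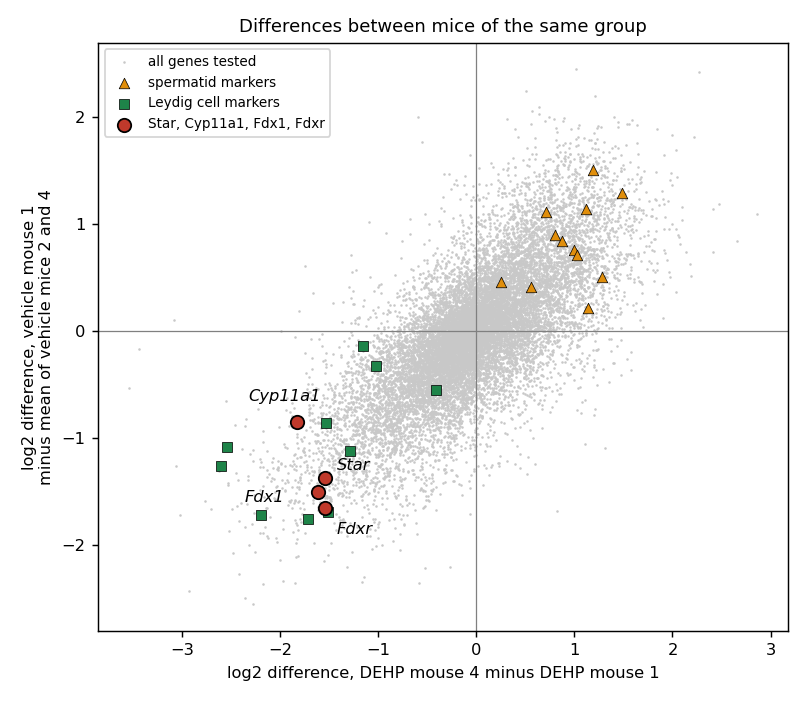
Log2 difference between DEHP mice 4 and 1 (horizontal) against that between vehicle mouse 1 and the mean of vehicle mice 2 and 4 (vertical), with each grey point 1 of the 15830 genes. Star, Cyp11a1, Fdx1 and Fdxr (red) lie at the lower left with the Leydig cell markers (green squares), and the spermatid markers (orange triangles) lie at the upper right; both axes come from the same 12 arrays.

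The spread of these genes over the mice was wide for the array. Between the highest and the lowest mouse, Fdxr spanned 1.87 on the log2 scale (3.65-fold), Cyp11a1 1.82 (3.54-fold), Star 1.77 (3.40-fold) and Fdx1 1.71 (3.27-fold). The median gene spanned 0.725. The range of Fdxr was at percentile 95.8 of all genes, that of Cyp11a1 at 95.3, that of Star at 94.5 and that of Fdx1 at 93.5.

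The single arrays show the same order of mice. In the pair of DEHP mouse 1 with vehicle mouse 1, the log2 ratio of DEHP over vehicle for Star was 1.96 where the DEHP sample carried Cy5 and 1.58 where it carried Cy3. Against the same vehicle mouse, DEHP mouse 4 gave 0.33 in Cy5 and 0.11 in Cy3. Against vehicle mouse 4, DEHP mouse 4 gave -0.85 in Cy5 and -1.23 in Cy3. On this probe of Star, the sign of the ratio thus turned with the pair of mice and not with the dye.

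Cyp11a1 stood apart from the other genes in 1 pair. With DEHP mouse 4 against vehicle mouse 1, it gave -0.64 with DEHP in Cy5 and -0.98 with DEHP in Cy3, while Fdxr gave 0.26 and 0.37. Fdx1 gave 0.01 and 0.24 there. DEHP mouse 4 was the lowest mouse for Cyp11a1, and vehicle mouse 1 was the lowest for Star, Fdx1 and Fdxr. Counted over the 12 arrays, the ratio was above 0 on 8 for Star, 8 for Fdxr, 7 for Fdx1 and 6 for Cyp11a1. Both dye orientations of a pair had the same sign in all 6 pairs for Star, Cyp11a1 and Fdxr, and in 5 of 6 for Fdx1, whose remaining pair, DEHP mouse 1 against vehicle mouse 4, gave 0.07 and -0.07. These counts are those of the brightest probes. The second Star probe had 5 of 6, with DEHP mouse 1 against vehicle mouse 4 at 0.27 in Cy5 and -0.04 in Cy3. The separate Fdx1 probe had 6 of 6. On the brightest probes the gap between orientations had a median of 0.30 for Star, 0.28 for Cyp11a1, 0.18 for Fdx1 and 0.12 for Fdxr.

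**Figure D3:**
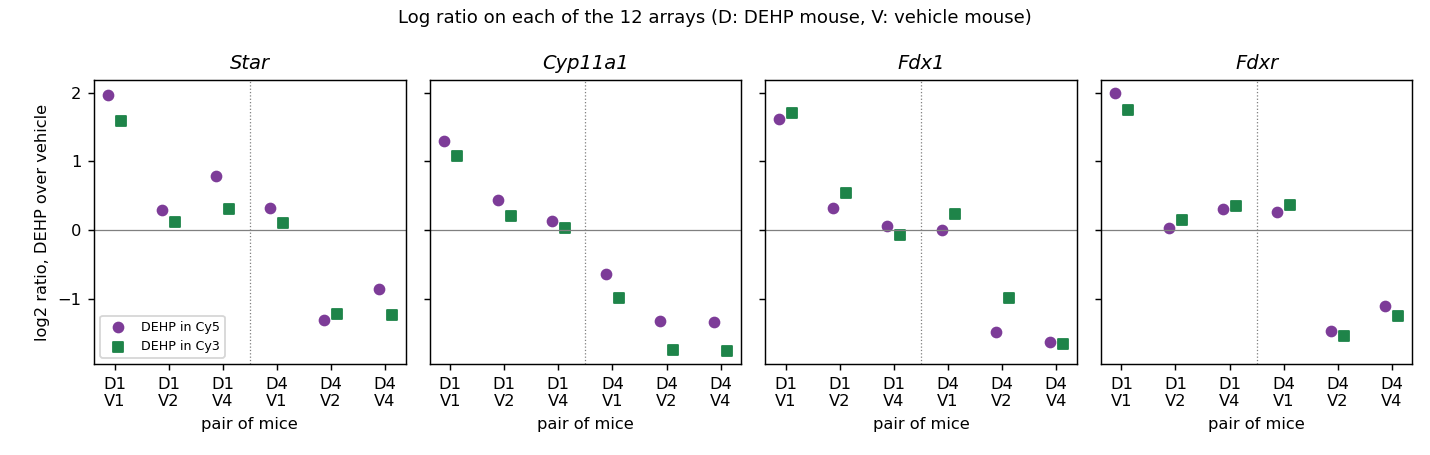
Log2 ratio of DEHP over vehicle on each of the 12 arrays (vertical axis), by pair of mice (D, DEHP mouse; V, vehicle mouse), with circles where the DEHP sample carried Cy5 and squares where it carried Cy3. Pairs of DEHP mouse 1 (left of the dotted line) reach 2.00, and pairs of DEHP mouse 4 with vehicle mice 2 and 4 lie below 0 in every panel.

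The arrays lay on 3 slides, so the values were also read slide by slide, without a test. Slides 1 and 2 held the pairs with vehicle mice 1 and 2, in opposite orientations, and slide 3 those with vehicle mouse 4. For DEHP minus vehicle, Star gave 0.32 and 0.15 on slides 1 and 2 and -0.24 on slide 3. Fdx1 gave 0.12, 0.37 and -0.82 on slides 1, 2 and 3, and Fdxr gave 0.21, 0.18 and -0.42. Cyp11a1 was below 0 on all of them, at -0.05, -0.36 and -0.73. Slide 3 and vehicle mouse 4 cannot be told apart.

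Single mice set the sign of the group difference. Without DEHP mouse 4 it was 0.84 for Star, 0.53 for Cyp11a1, 0.70 for Fdx1 and 0.77 for Fdxr. Without DEHP mouse 1 it was -0.69, -1.29, -0.91 and -0.78 for the same genes in that order. In those fits the spread of the lone DEHP mouse is taken from the vehicle mice. Without vehicle mouse 1 all 4 differences were negative, from -0.39 for Star to -0.66 for Cyp11a1. No gene of the array was called in limma in any of these fits.

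**Figure D4:**
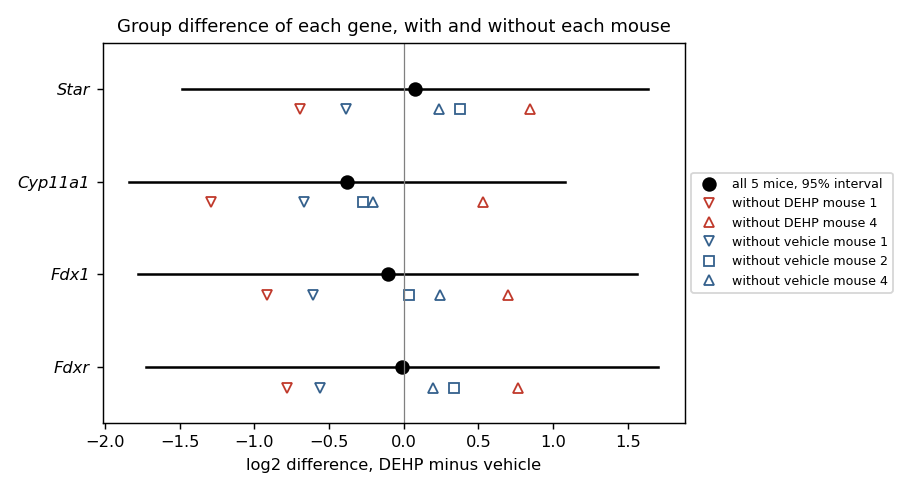
Log2 difference of DEHP minus vehicle for each gene (horizontal axis), with all 5 mice as a black point and its 95% interval as a line; open symbols give the difference without 1 mouse, red for a DEHP mouse and blue for a vehicle mouse. The intervals all include 0, and leaving out DEHP mouse 1 or DEHP mouse 4 moves every gene to opposite sides of 0.

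The 4 genes had like patterns over the mice. Likeness was measured as the root mean square difference of the 5 mouse values, with no test. Star and Fdxr were closest, at 0.11, followed by Fdx1 with Fdxr at 0.23 and Star with Fdx1 at 0.24. Cyp11a1 was the least alike, at 0.29 from Fdx1, 0.33 from Star and 0.38 from Fdxr. All these values come from the same extracts and arrays. Members included, 224 genes of the array were within 0.25 of Star, 373 of Cyp11a1, 244 of Fdx1 and 189 of Fdxr.

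The 3 genes most like each member, the other members left out, were named by this measure alone. For Star they were Plin3, a coat protein of lipid droplets (0.09), Aox1, an aldehyde oxidase (0.10), and Por, which feeds electrons to the P450 enzymes of the endoplasmic reticulum (0.11). For Fdxr they were Aox1 (0.04), Reep3 (0.09) and Mapt, the microtubule protein tau (0.09). For Fdx1 they were Nceh1, a cholesterol ester hydrolase (0.06), Phyh, a peroxisomal hydroxylase (0.08), and Pf4, a chemokine (0.09). For Cyp11a1 they were Etfb, a subunit of a mitochondrial electron transfer flavoprotein (0.05), Ptprd, a receptor phosphatase (0.07), and Blvrb, a biliverdin reductase (0.07). None of these 11 genes was called between DEHP and vehicle in limma, where no gene was, and their differences ran from -0.41 for Etfb to 0.05 for Aox1.

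Markers of cell types were read beside these genes, since the captured areas could hold several cell types. The 10 Leydig cell markers, among them the hormone gene Insl3, all passed the filter, so the defining markers of the labelled cell type were present. Insl3 was at 0.91 and -1.29 in DEHP mice 1 and 4, against -1.02, 0.50 and 0.90 in vehicle mice 1, 2 and 4. The low mice were those of the 4 genes. The median of the 10 markers was 0.66 and -0.96 in DEHP mice, against -0.55, 0.22 and 0.58 in vehicle mice, and their log2 summed intensity was 17.9 and 16.2 in DEHP mice, against 16.8, 17.6 and 18.1 in vehicle mice. All 10 were called lower in DEHP mouse 4 than in DEHP mouse 1, and 9 of 10 in vehicle mouse 1 than in vehicle mice 2 and 4. The shares of all genes called lower in these comparisons were 41.1% and 38.2%. In such bulk material, fewer Leydig cells and less RNA per cell cannot be told apart.

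Spermatid markers ran the other way. Prm2, a protamine of sperm chromatin, was at 0.02 and 0.82 in DEHP mice 1 and 4, against 0.32, -0.52 and -0.63 in vehicle mice 1, 2 and 4. All 12 of the list were called higher in DEHP mouse 4 than in DEHP mouse 1, and 11 of 12 in vehicle mouse 1 than in vehicle mice 2 and 4, against 36.3% of all genes called higher in the comparison of DEHP mice and 33.9% in that of vehicle mice. Their log2 summed intensity was 19.3 and 19.7 in DEHP mice, against 19.1, 18.5 and 18.5 in vehicle mice. Macrophage markers moved as the Leydig cell markers did. Called lower were 6 of 8 in DEHP mouse 4 and 7 of 8 in vehicle mouse 1, against 41.1% and 38.2% of all genes. Lyz2 was at 0.90 and -1.51 in DEHP mice, against -0.87, 0.58 and 0.90 in vehicle mice. The macrophage list summed to 16.8 and 15.1 in DEHP mice, against 15.4, 16.5 and 16.9 in vehicle mice, as log2 intensity. Between DEHP and vehicle, spermatid markers were above 0 in 11 of 12 (median 0.67) and Leydig cell markers below 0 in 9 of 10 (median -0.27), with none past an adjusted p of 0.05. Of all genes, 48.3% lay above 0 in that difference. With median centring the median difference of DEHP mouse 4 minus DEHP mouse 1 was -0.89 for the Leydig cell list, 1.91 for the spermatid list, -0.51 for the macrophage list and -0.13 for the peritubular myoid list, against -1.53, 1.01, -1.08 and -0.78 with loess. The part of these cells in the values of Star, Cyp11a1, Fdx1 and Fdxr was not tested.

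Markers of 4 further cell types were read the same way, as DEHP mouse 4 against DEHP mouse 1 and vehicle mouse 1 against vehicle mice 2 and 4. Over all genes, 41.1% were called lower and 36.3% higher in DEHP mouse 4, and 38.2% and 33.9% in vehicle mouse 1. The Sertoli cell list, with Cst9 as its brightest gene, had 4 of 10 lower and 1 higher in DEHP mouse 4. It had 4 lower and 4 higher in vehicle mouse 1. The counts called lower were near the shares of all genes. With median centring the direction of this list turned, with 9 of 10 above 0 in DEHP mouse 4 minus DEHP mouse 1 (median 0.35, against -0.02 with loess). Its log2 summed intensity was 15.2 and 14.7 in DEHP mice, against 15.6, 15.4 and 15.7 in vehicle mice. Of the peritubular myoid list, with Acta2, 5 of 6 were lower in DEHP mouse 4 and 3 of 6 in vehicle mouse 1, and it summed to 14.2 and 13.4 in DEHP mice, against 13.5, 15.8 and 14.7 in vehicle mice. Of the endothelial list, with Vwf, all 6 tested were called lower in both comparisons, with a median of -0.49 for the DEHP mice and -1.04 for the vehicle mice. With median centring 3 of 6 lay above 0 in DEHP mouse 4 minus DEHP mouse 1 (median -0.07). It summed to 12.4 and 11.7 in DEHP mice, against 11.2, 13.4 and 12.3 in vehicle mice. The spermatocyte list had 5 of 7 called higher in each comparison, to be read against the same shares of all genes. Tex101, its brightest gene, was the 1 called lower in DEHP mouse 4 than in DEHP mouse 1, at -0.19 (SE 0.04). The spermatocyte list summed to 14.5 and 14.4 in DEHP mice, against 14.9, 14.6 and 14.7 in vehicle mice.

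Set against the median of the Leydig cell markers in the same mouse, a step added after the data were seen and read without a test, the spread of the 4 genes narrowed. Cyp11a1 was at 0.02 and -0.18 in DEHP mice, against 0.13, 0.15 and -0.08 in vehicle mice, a range of 0.33 in place of 1.82. Fdx1 was at 0.08 and 0.09 in DEHP mice, against -0.41, 0.12 and 0.17 in vehicle mice, a range of 0.58. Star was at 0.15 and 0.24 in DEHP mice, against -0.40, 0.36 and -0.29 in vehicle mice, a range of 0.75. Fdxr was at 0.10 and 0.18 in DEHP mice, against -0.55, 0.48 and -0.17 in vehicle mice, a range of 1.02. The groups overlapped for every gene, and the low mouse that remained for Star, Fdx1 and Fdxr was vehicle mouse 1. The differences of DEHP minus vehicle on this scale were 0.31 for Star, -0.15 for Cyp11a1, 0.12 for Fdx1 and 0.22 for Fdxr. Macrophage markers had the same low mice, with medians of 0.54 and -0.47 in DEHP mice, against -0.62, 0.06 and 0.57 in vehicle mice. The 4 genes were not set against the macrophage list. Whether the narrowing is particular to the Leydig cell list was not tested.

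**Figure D5:**
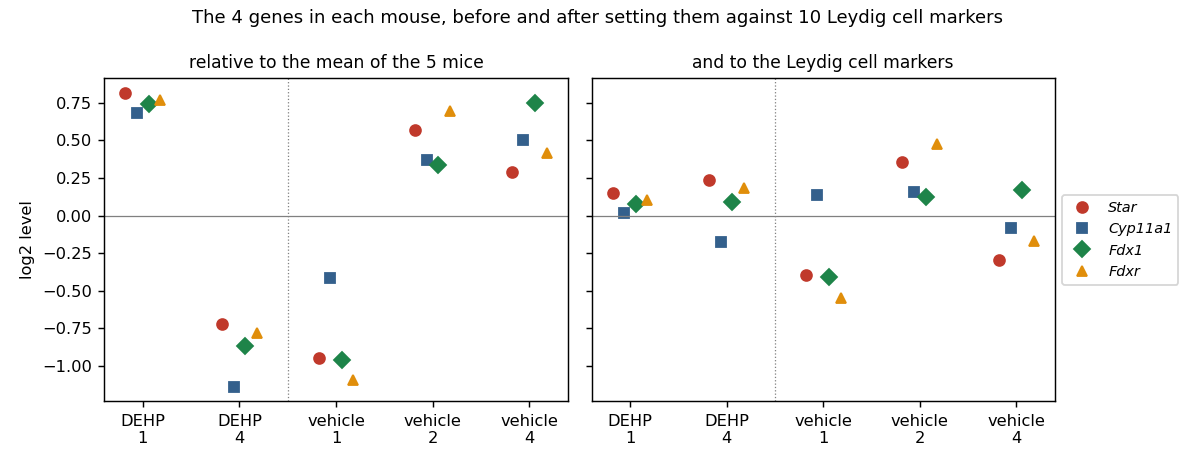
Log2 level of the 4 genes in each mouse (vertical axis), on the left against the mean over all 5 mice and on the right also relative to the median of 10 Leydig cell markers in that mouse, with DEHP mice left of the dotted line. The ranges of 1.71 to 1.87 on the left narrow to 0.33 to 1.02 on the right.

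Genes on either side of the step were read from 4 lists. Of 16 genes that supply and deliver cholesterol, none was called between DEHP and vehicle, with 4 above 0, 12 below and a median of -0.13. By the lowest p, Stard3, which binds cholesterol on late endosomes, gave -0.59 (SE 0.35), and Npc2, which moves it out of lysosomes, gave 0.35 (SE 0.23). In this list 11 genes were called lower and 1 higher in DEHP mouse 4, and 12 lower and 2 higher in vehicle mouse 1. Over all genes, 41.1% were called lower and 36.3% higher in DEHP mouse 4, and 38.2% and 33.9% in vehicle mouse 1. With median centring, the difference of DEHP mouse 4 minus DEHP mouse 1 lay below 0 in 9 of the 16, against 15 with loess.

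Of the 8 tested genes that convert pregnenolone onward, none was called between the groups, with 2 above 0, 6 below and a median of -0.16. Hsd17b3, which makes testosterone, gave 0.57 (SE 0.38), with a share of 0.83 of its DEHP channels well above background. Srd5a1, a steroid reductase, gave -0.36 (SE 0.29). Here 7 of 8 were called lower in DEHP mouse 4 and 6 of 8 in vehicle mouse 1, with none higher. The shares of all genes called lower were 41.1% and 38.2%.

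Of the other mitochondrial P450 enzymes and electron carriers, 4 of 7 passed the filter, with 1 above 0, 3 below, a median of -0.22 and none called. Fdx2, a ferredoxin of iron-sulfur cluster assembly and the relative of Fdx1, gave -0.49 (SE 0.25). It was at 0.03 and -0.61 in DEHP mice, against 0.09, 0.28 and 0.21 in vehicle mice, so that vehicle mouse 1 was not far below the others as it was for Fdx1. Its extract difference in vehicle mouse 1 was -0.16 (SE 0.05). Nfs1, the sulfur donor of that assembly, gave -0.17 (SE 0.26) between the groups. In this list 3 of 4 were called lower in each extract comparison, against 41.1% and 38.2% of all genes. With median centring, the difference of DEHP mouse 4 minus DEHP mouse 1 lay above 0 in 2 of the 4, against none with loess.

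Of 14 tested genes in the control of Star and Cyp11a1 transcription, none was called, with 5 above 0, 9 below and a median of -0.09. Nr5a2, an orphan nuclear receptor, gave 0.53 (SE 0.25), with a share of 0.67 of its vehicle channels well above background. Nr0b1, a repressor of steroidogenic genes, gave -0.33 (SE 0.26), at -0.20 and -0.19 in DEHP mice, against -0.27, 0.41 and 0.25 in vehicle mice. In DEHP mouse 4, 5 of 14 were called lower and 4 higher, and in vehicle mouse 1, 11 were lower and 2 higher. Over all genes, 41.1% were called lower and 36.3% higher in DEHP mouse 4, so the counts there were not above these shares. In vehicle mouse 1 the shares were 38.2% and 33.9%. The median difference of DEHP mouse 4 minus DEHP mouse 1 in this list was -0.09 with loess, but 0.51 with median centring and 0.08 with the scanner's processed signals.

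The stretch upstream of the starts of these genes was searched for known motifs on both strands. RefSeq promoters on GRCm38.p6 were matched for 3 of the 4 genes, at 4 starts, and the 250 bases before each start were read. No promoter was matched for Star, so Star was not searched. AAGGNCA, 1 form of the site that the nuclear receptor NR5A1 reads, was in none of them, while 17.5% of 32851 promoters hold it. Other forms of that site were not searched, so these windows are not shown to lack NR5A1 sites. TATAAA was in none, against 12.4% of all. GGGCGG, the box read by Sp1, was in Fdx1 once and in Fdxr 3 times but not before either start of Cyp11a1, against 32.7% of all. The windows of both electron carriers are shown 5′ to 3′ on the minus strand, chr9:51963603-51963852 for Fdx1 and chr11:115276970-115277219 for Fdxr, with the boxes in capitals.

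Fdx1: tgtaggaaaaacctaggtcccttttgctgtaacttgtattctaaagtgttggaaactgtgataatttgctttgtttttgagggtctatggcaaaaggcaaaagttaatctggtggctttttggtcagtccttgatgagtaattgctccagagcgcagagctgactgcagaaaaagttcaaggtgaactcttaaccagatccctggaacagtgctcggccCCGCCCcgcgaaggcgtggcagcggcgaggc
Fdxr: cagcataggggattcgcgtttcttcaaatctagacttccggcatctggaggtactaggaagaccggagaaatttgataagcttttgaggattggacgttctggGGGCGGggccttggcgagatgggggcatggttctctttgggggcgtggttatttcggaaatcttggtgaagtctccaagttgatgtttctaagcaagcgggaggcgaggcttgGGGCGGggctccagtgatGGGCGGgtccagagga

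These matches describe letters in a window and say nothing of which factor acts there.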

How the data were processed

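Per the file headers, the deposited scanner files hold intensity per spot and channel from Feature Extraction 9.5.1.1: the mean signal, the local background and a background-subtracted, dye-normalized processed signal. Flags mark outlying and saturated spots and those well above background. The log10 ratio in the same files, red over green per the file headers, served only to check directions. A series-wide table deposited by the authors holds log2 ratios. Its scale and direction are not given in the sources used here, and set against the scanner values its columns ran as DEHP over vehicle (r = 0.915 to 0.993, slopes 0.842 to 0.932, medians -0.06 to 0.00). Limma is named, without a version, in the submitters' processing notes.

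All else used limma 3.58.1 in R 4.3.3. Normexp (offset 50) corrected the background and arrays were normalized with loess, control spots at weight 0. Control and outlier spots were dropped (0.332% to 0.604% of spots per array) and spots of a probe averaged. A least squares fit of a probe's 12 log ratios gave 5 mouse values and a dye effect. Probes were kept (21198 of 41174) where 2 or more mice had them well above background on 50% or more of their arrays, and the brightest probe stands for a gene. Genes were named by RefSeq accession (10550), current symbol (1894), older symbol (971) or the file's name (2415). Between 45.4% and 54.4% of red and 35.5% and 46.1% of green probe spots were well above background. The 5 mouse values of DEHP and vehicle were compared by lmFit and eBayes, and single extracts on the 12 arrays, with Benjamini-Hochberg adjustment over 15830 genes. The number of arrays limits the precision of a mouse value, and the 5 mice that of the groups. The labels speak of 4 mice per group; the other mice are not analysed here.

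The members and lists were chosen with earlier results of these data known. Named were the members with every probe, from each pathway list the genes past the threshold or else the 2 of lowest p, the 3 genes most like each member, and the brightest gene of each marker list. Several Leydig cell markers also stand in the pathway lists. The functions were tested on simulated data. Alternatives were the background correction, processed signals, median centring, the filter, the probe rule, the dye term, slides, the authors' table, each mouse left out, and the mouse number as a block.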

Additional observations from a re-analysis of the deposited data

How the results depend on the processing

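The group differences of Star, Fdx1 and Fdxr lay near 0, so their sign moved easily. That of Cyp11a1, at -0.38, was below 0 in 19 of 20 alternatives and turned only without DEHP mouse 4. In none of the alternatives run on mouse values did limma call any of the 4 genes. Fdxr gave 0.059 with the scanner's processed signals. Fdx1 gave 0.014 with median centring and 0.0026 in the authors' table, where another Fdx1 probe had to stand for the gene. Slide 1 alone gave 0.12 for Fdx1 and 0.21 for Fdxr, slide 2 alone 0.37 and 0.18, and slide 3 alone -0.24 for Star. Leaving out each mouse gave -0.69 to 0.84 for Star, -1.29 to 0.53 for Cyp11a1, -0.91 to 0.70 for Fdx1 and -0.78 to 0.77 for Fdxr. Relative to the Leydig cell markers, added after the data were seen, Fdx1 gave 0.12 and Fdxr 0.22. The mouse number as a replicate block, over mice 1 and 4 of both groups, gave 0.038 for Fdx1 and 0.34 for Fdxr. The labels do not say that a number pairs mice, and deviations from the group means correlated at -0.73 for number 1 and -0.56 for number 4, so the block says nothing of a weaker effect. The block called 0 genes in limma (14 at an unadjusted p under 0.05), and with the numbers crossed, a pairing added after the data were seen, 0 genes were called (1405 unadjusted). Taking the 12 arrays as independent called 2121 genes, against 0 on 5 mice, by counting arrays of an extract as animals. The extract differences of all 4 genes kept their sign and call in the 9 alternatives run on them. Those on the filter and the dye term did not change the estimates themselves. A dye term per slide could not be fitted, since slides 1 and 2 hold the same pairs in opposite orientations, and slide 3 got its own term instead.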
